A study of Mus musculus with 29 samples.

Results

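The IGF1 and insulin receptor pathway was followed through 7 genes named for it: the ligand Igf1, the receptors Igf1r and Insr, the adaptors Irs1 and Irs2, the binding protein Igfbp4 and the RNA-binding protein Igf2bp2. These 7 were found by symbol among 38924 gene identifiers in a table of expected counts (reads assigned to genes). RNA was sequenced from 4 sorted bone marrow populations of young C57BL/6 mice that carried a Dnmt3a mutation or were controls: long-term and short-term haematopoietic stem cells (LT-HSC and ST-HSC) and the multipotent progenitors MPP3 and MPP4. Every group, control groups included, was taken 6 weeks after pIpC, which mimics double-stranded RNA and is commonly used to switch on an inducible Cre. The mutant allele, the Cre driver and the number of animals per library are not given in the sources used here. The 29 libraries comprised 3 mutant and 4 control LT-HSC, 4 mutant and 3 control ST-HSC, 4 mutant and 3 control MPP3, and 4 mutant and 4 control MPP4 libraries. Mutant ST-HSC libraries have titles that name Dnmt3a without the word for mutant, and were grouped with the letter in their descriptions, and all 4 mutant MPP3 libraries of the sample list were used although the design text counts 3. The labels do not tie replicates to separate animals. Each p-value therefore reflects the spread among these libraries alone, and that spread may be technical. Numbers in the sample descriptions recur across the populations of a genotype, and the main tests treat these libraries as independent.

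IGF1 is made by stromal and myeloid cells of the marrow, by the liver and by many other tissues, and it signals through the receptor tyrosine kinase encoded by Igf1r. The insulin receptor encoded by Insr is the close relative of that receptor, and both phosphorylate the adaptors Irs1 and Irs2, which recruit PI3-kinase and so activate Akt and mTOR and hold FoxO transcription factors out of the nucleus. Igfbp4 is a secreted protein that binds IGFs and limits their access to the receptor until it is cleaved by pappalysin. Igf2bp2 binds messenger RNAs, among them that of Igf2 and targets that it shares with the Lin28 and Hmga2 axis of fetal growth and stem cells. FoxO factors and restrained mTOR activity are known to maintain quiescent haematopoietic stem cells. Dnmt3a is a de novo DNA methyltransferase that adds methyl groups to cytosines followed by guanine (CG).

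The 250 bases before the start of Igf2bp2 and of Igfbp4 are shown because these genes carried the largest genotype difference and the only population difference that edgeR called among the 7. They come from RefSeq on GRCm38.p6, are written 5′ to 3′ along the strand of the gene, and have every CG dinucleotide in capitals. CG reads the same on both strands. The window of Igf2bp2 is chr16:22163300-22163549 on the minus strand.
Igf2bp2: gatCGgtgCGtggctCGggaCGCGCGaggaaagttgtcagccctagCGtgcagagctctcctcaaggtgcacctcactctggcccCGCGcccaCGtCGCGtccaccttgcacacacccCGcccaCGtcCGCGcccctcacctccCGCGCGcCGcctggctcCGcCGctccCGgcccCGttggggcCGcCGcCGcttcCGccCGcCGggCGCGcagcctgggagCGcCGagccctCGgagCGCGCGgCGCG
The window of Igfbp4 is chr11:99040994-99041243 on the plus strand.
Igfbp4: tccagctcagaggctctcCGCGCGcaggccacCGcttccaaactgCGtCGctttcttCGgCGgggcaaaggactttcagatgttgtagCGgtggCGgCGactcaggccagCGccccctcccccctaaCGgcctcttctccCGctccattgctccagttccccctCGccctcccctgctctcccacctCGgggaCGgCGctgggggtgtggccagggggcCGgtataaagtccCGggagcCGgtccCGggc

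The Igf2bp2 window holds 40 CG dinucleotides at 77.2% G and C, and 1.31% of the 32851 RefSeq promoter windows of the same length hold at least as many. The Igfbp4 window holds 22 at 69.2% G and C, a number that 14.8% of windows reach. The window of Igf1r holds 42, that of Irs2 34 and that of Irs1 28, reached by 0.865%, 3.53% and 7.61% of windows. Igf1 has 5 CG dinucleotides, which 55.6% of windows reach, the fewest among the members with a window. Its RefSeq window, chr10:87860861-87861110, lies inside the gene as annotated in GENCODE M21 and given below. The windows of Igf1r, Irs1 and Irs2 lie upstream of the genes given below but do not border them. The windows compared are therefore not all in the same position relative to those genes. Of the 7 members 6 matched an entry of the RefSeq table, all but Insr. No methylation was measured here, so these counts describe the sequence only.

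All values below are CPM, read counts relative to library size, scaled by the trimmed mean of M-values, and levels of different genes are compared per kilobase of merged exon. Library totals ran from 6133994 to 10374672 counts with a median of 8154515, so that 3 counts, the limit that a count of 0 allows, correspond to 0.288 to 0.564 CPM. These limits cover counting error only. Some markers separated the sorted populations and others did not. Flt3 had 408 to 459 CPM in mutant and 379 to 460 CPM in control MPP4 libraries, above all other populations. Yet the 6 MPP4 lymphoid genes summed there to 1370 to 1690 and 1350 to 1600 CPM. That was below the 3670 to 23900 and 2920 to 15100 CPM of mutant and control MPP3 libraries. The 6 include Ighm, an immunoglobulin gene. Jchain, of antibody-secreting cells, had 58.2 to 557 and 138 to 509 CPM in mutant and control MPP3 libraries, and at most 0.286 CPM in MPP4 libraries. The part of Ighm in these sums was not tested. The 7 granulocyte-monocyte genes were highest in MPP3, at 4280 to 11200 and 6470 to 9320 CPM, but Cebpa, 1 of them, overlapped between MPP4 (8.27 to 26.2 and 10 to 24.7 CPM) and MPP3 (12.4 to 25.6 and 17 to 26.7 CPM). Slamf1 had 31.1 to 54.1 and 14.2 to 29.8 CPM in mutant and control LT-HSC libraries, whereas the 9 long-term HSC genes together overlapped between ST-HSC (2060 to 3540 and 1990 to 3090 CPM) and LT-HSC (2320 to 2620 and 1140 to 2210 CPM). No marker list of ST-HSC was used. One library stood apart from its label. Mutant ST-HSC replicate 2 had 406 CPM of Slamf1, the gene for the LT-HSC marker CD150, against 0.776 to 1.83 CPM in the other mutant ST-HSC libraries. Libraries also differed in markers of other cells: the neutrophil gene S100a8 had 5.83 to 67.2 CPM in mutant LT-HSC libraries and 2260, 583, 349 and 3.67 CPM in the 4 control LT-HSC libraries. In bulk samples fewer cells of a type and less RNA per cell cannot be told apart.

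The pathway was present mainly as its receptors, Irs2 and Igfbp4, and these had counts in every library. Per kilobase, median levels over the 29 libraries were 27.6 CPM for Igfbp4, 5.88 for Insr, 3.79 for Igf1r and 1.94 for Irs2, against 0.254 for Igf2bp2, 0.181 for Igf1 and 0 for Irs1. Insr exceeded Igf1r per kilobase in 29 of 29 libraries, with a ratio of 1.02 to 2.66 and a median of 1.68. Both receptors are encoded by long transcripts, 13.75 kb of merged exon for Insr and 16.79 kb for Igf1r in the GENCODE M21 annotation of GRCm38. The ratio depends on these lengths, and which transcripts were expressed was not examined. Before division by length, Insr was not always the higher: control MPP3 libraries averaged 61.2 CPM of Insr and 63.4 CPM of Igf1r. The ratio averaged 1.44 ± 0.357 in mutant and 1.77 ± 0.234 in control LT-HSC libraries (SD, n = 3 and 4), and 1.86 ± 0.68 in mutant and 1.19 ± 0.202 in control MPP3 libraries (SD, n = 4 and 3). The ranges overlapped in LT-HSC, at 1.03 to 1.65 in mutant and 1.44 to 1.97 in control libraries. They also overlapped in MPP3, at 1.02 to 2.66 in mutant and 1.02 to 1.42 in control libraries. The wide spread of the low members and the narrow spread of the receptors can be seen in the plot of each library's level.

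**Figure D1:**
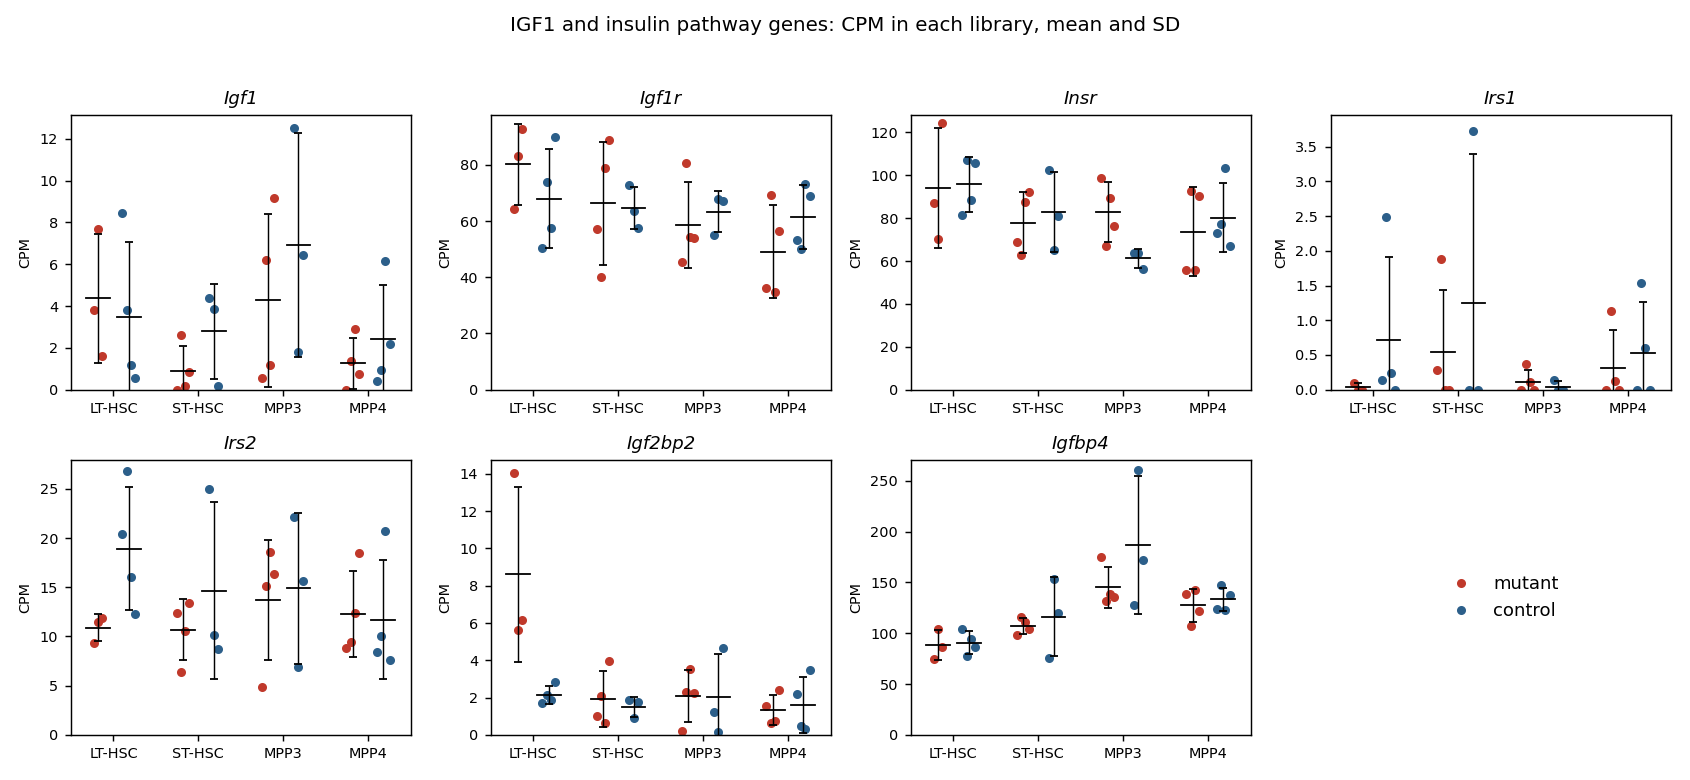
Level of each of the 7 genes in CPM (vertical axes, from 0) in the 4 populations (horizontal axes); points are libraries, mutant in red and control in blue, and bars are the group mean with SD, with lower arms that would pass 0 cut there. The 3 mutant LT-HSC libraries stand above every other library for Igf2bp2 (5.64 to 14 CPM), and the group means of Igfbp4 are highest in MPP3 (145 CPM in mutant and 187 CPM in control libraries).

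No member differed between mutant and control cells past the threshold of edgeR in any population, while DESeq2 called Igf2bp2 in LT-HSC. In edgeR's quasi-likelihood test with Benjamini-Hochberg adjustment over all genes, 0 of 6 tested members had an adjusted p under 0.05 in LT-HSC, beside 0% of 13922 genes tested, and likewise 0 of 6 in ST-HSC (0% of 13381). The count was 0 of 6 for MPP3 as well (0% of 13572) and for MPP4 (0% of 13108). Irs1 did not pass the filter on low counts in these 4 comparisons and was not tested there. At an unadjusted p under 0.05 the edgeR counts over all genes were 1185, 493, 302 and 413, and 2, 0, 0 and 0 of these were members, Igf2bp2 and Irs2 in LT-HSC. DESeq2 called 292 genes in LT-HSC, 1 of them a member (Igf2bp2), and 0, 2 and 5 genes in ST-HSC, MPP3 and MPP4, with 0 members among them. Libraries of the 2 genotypes did not overlap for 2 of 6 tested members in LT-HSC, where 7.31% of all tested genes did not overlap. None of the 6 separated in ST-HSC (4.89% of all genes) or in MPP4 (2.34%), and 1 of 6, Insr, did so in MPP3 (4.44%). Over the 4 populations together, 0 of 7 members were called for an average mutant effect, beside 0.0251% of 15915 genes (4 genes by edgeR and 111 by DESeq2), and adjusted p-values of the members ran from 0.840 to 0.996. A mutant effect that differed between populations was called for 0 of 7 members and for 0% of genes by edgeR, with 947 genes at an unadjusted p under 0.05, 0 of them members, and 44 by DESeq2.

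Igf2bp2, which binds and regulates messenger RNAs of growth and metabolism, showed the largest genotype difference among the members. Its gene lies at chr16:22059009-22163299 on the minus strand. It had 14, 5.64 and 6.18 CPM in mutant LT-HSC libraries, from 140, 49 and 54 counts, and 1.72, 2.14, 1.88 and 2.82 CPM in control LT-HSC libraries, from 12, 18, 16 and 20 counts. Every mutant library lay above every control one, so the groups did not overlap, and replicate 1 was the highest mutant library. The fitted difference was 2.00 on the log2 scale (SE 0.529, 95% interval 0.836 to 3.16), or 3.99-fold, with an unadjusted p of 0.00298 that did not pass adjustment over all genes in edgeR's quasi-likelihood test (adjusted p = 0.218). DESeq2 gave the same log2 difference with an adjusted p of 0.0426. Leaving out each library in turn gave differences of 1.45 to 2.23 and adjusted p-values of 0.0948 to 0.615 in edgeR.

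Markers of these and of other cells moved with this comparison. The 9 long-term HSC genes summed to 2320 to 2620 CPM in mutant and 1140 to 2210 CPM in control LT-HSC libraries, without overlap, and all 9 had higher fitted levels in mutant libraries, with 0 of them called. Slamf1, the defining gene of that list, did not overlap either, as given above. The 8 neutrophil genes summed to 60.2 to 437 CPM in mutant and 47.5 to 11600 CPM in control LT-HSC libraries, and the 7 erythroid genes to 123 to 474 and 192 to 17400 CPM. All 8 and all 7 had lower fitted levels in mutant LT-HSC libraries, with 0 of them called. The control library lowest in S100a8, replicate 4 at 3.67 CPM, had 2.82 CPM of Igf2bp2, the highest of the control LT-HSC libraries and below every mutant one. That library was also the control one highest in the long-term HSC genes, at 2210 CPM. The part of either kind of marker in the Igf2bp2 values was not tested. Libraries also carry 1 of 2 prefixes in their column names, which separate the description numbers 1702 to 1708 from 1803 to 1819. Within the first prefix the mutant LT-HSC library had 6.18 CPM and the control ones averaged 1.93 CPM, and within the second the means were 9.83 and 2.35 CPM. The differences of mean log2 CPM (prior count 2) were 1.57 and 1.84. The prior count makes differences at low counts smaller, so these values are not on the scale of the fitted difference.

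Outside LT-HSC, Igf2bp2 was low in both genotypes. It averaged 1.91 ± 1.5 CPM in mutant and 1.5 ± 0.522 CPM in control ST-HSC libraries (SD, n = 4 and 3), 2.07 ± 1.39 and 2.01 ± 2.36 CPM in MPP3 libraries, and 1.33 ± 0.824 and 1.61 ± 1.51 CPM in MPP4 libraries. The genotypes overlapped in each of these populations, and the test for an effect that differs between populations gave an adjusted p of 0.980 in edgeR. Among mutant libraries, every LT-HSC library lay above every ST-HSC, MPP3 and MPP4 library. The log2 differences from mutant LT-HSC were -2.16 for mutant ST-HSC, -2.06 for mutant MPP3 and -2.68 for mutant MPP4, with adjusted p-values of 0.512, 0.265 and 0.159 in edgeR's quasi-likelihood test. Without mutant ST-HSC replicate 2 the first was -2.2 (adjusted p = 0.711). The difference for mutant MPP4 passed in DESeq2, at -2.71 with an adjusted p of 0.0498. In control libraries the same contrasts were -0.49, -0.08 and -0.40. These comparisons share the LT-HSC libraries of their genotype and are therefore not independent of each other.

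**Figure D2:**
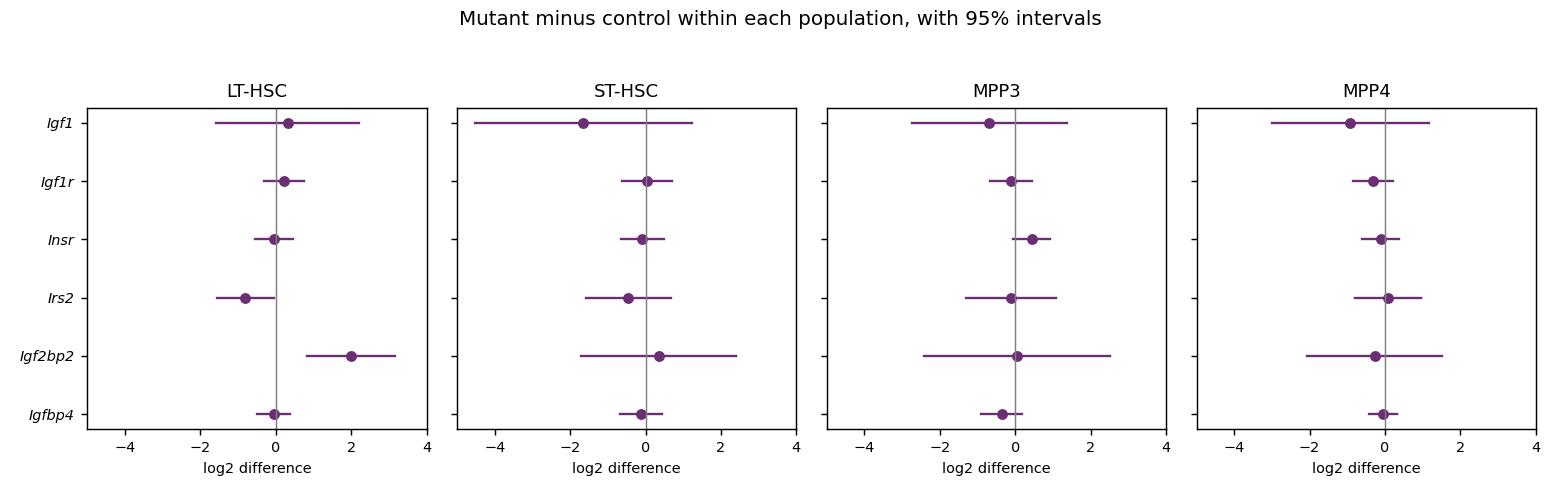
Fitted log2 difference, mutant minus control, of the 6 tested genes in each population (horizontal axes), with 95% intervals as lines; the vertical line marks no difference. The intervals of Igf2bp2 (0.836 to 3.16) and Irs2 (-1.57 to -0.04) in LT-HSC leave out 0, and no adjusted p is under 0.05.

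Igf1, the ligand (chr10:87858265-87937042, plus strand), was low in these cells and differed widely between libraries of 1 group. It had counts in 27 of 29 libraries, with 0 to 12.5 CPM and a median of 1.79 CPM. It had 3.81, 7.71 and 1.60 CPM in mutant LT-HSC libraries and 8.43, 3.8, 1.17 and 0.564 CPM in control LT-HSC libraries. These ranges overlapped almost entirely, and the log2 difference was 0.32 with a 95% interval of -1.58 to 2.22 (adjusted p = 0.96, edgeR). Its highest values were in MPP3, with 0.556, 6.19, 1.18 and 9.20 CPM in mutant and 12.5, 1.79 and 6.46 CPM in control MPP3 libraries. In ST-HSC it had 0, 2.63, 0.155 and 0.840 CPM in mutant and 4.37, 3.84 and 0.159 CPM in control libraries, which overlapped. The log2 differences, mutant minus control, were -1.65 in ST-HSC, -0.92 in MPP4 and -0.69 in MPP3, with intervals that each span 0. In ST-HSC the interval ran from -4.52 to 1.23. Without mutant ST-HSC replicate 2, the library with 2.63 CPM and the one that stood apart in Slamf1, Igf1 did not pass the filter in ST-HSC and was not tested. The other mutant minus control differences in ST-HSC were then 0.21 for Igf1r, -0.00388 for Insr, -0.28 for Irs2, 0.31 for Igf2bp2 and -0.155 for Igfbp4, each with an adjusted p of 1 in edgeR.

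Markers of macrophages, a known source of Igf1, were present in the same libraries. The 8 macrophage genes summed to 283, 164, 89.4 and 122 CPM in mutant MPP3 libraries, and to 174, 112 and 148 CPM in control MPP3 libraries. These genes include Csf1r, which is also among the granulocyte-monocyte genes that were highest in MPP3. They summed to 22.8, 29.3 and 30 CPM in mutant LT-HSC and to 236, 109, 102 and 27.5 CPM in control LT-HSC libraries, which are listed here in the order used for Igf1. Adgre1, a defining gene of macrophages, had 1.5, 0.46 and 0.343 CPM in the mutant and 21.4, 8.79, 6.22 and 0 CPM in the control ones. Cxcl12, made by marrow stroma, had 2.6, 18.3 and 4.58 CPM in the mutant and 60, 26.3, 10.9 and 0.846 CPM in the control ones. All of these rank the control LT-HSC libraries in the same order as Igf1, as does S100a8 (2260, 583, 349 and 3.67 CPM). In the mutant ones Igf1 and Cxcl12 are both highest in replicate 2, where neither Adgre1 nor the macrophage sum is highest. In control ST-HSC libraries Cxcl12 had 1.53, 59 and 16.1 CPM, not in the order of Igf1. In MPP3 Adgre1 had 0.371, 14.3, 0.645 and 4.93 CPM in mutant and 8.02, 1.1 and 2.33 CPM in control libraries. The part of such cells in the Igf1 values was not tested. The genes whose log2 CPM was most like that of Igf1 over the 29 libraries were Zc4h2 (Pearson r = 0.702), Cybb (0.652) and Fgf1 (0.647), a description over libraries that share populations and depth.

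Neither receptor was called in any comparison in edgeR. Igf1r (chr7:67952827-68233668, plus strand) averaged 80.2 ± 14.5 CPM in mutant and 67.9 ± 17.6 CPM in control LT-HSC libraries (SD, n = 3 and 4), and 66.3 ± 21.8 and 64.7 ± 7.6 CPM in ST-HSC libraries. It averaged 58.5 ± 15.3 CPM in mutant and 63.4 ± 7.31 CPM in control MPP3 libraries, and 49.1 ± 16.7 and 61.4 ± 11.4 CPM in MPP4 libraries. From mutant LT-HSC at the top to mutant MPP4 at the bottom, each group's range overlapped that of its neighbour in the order. Mutant minus control differences ran from -0.31 in MPP4 to 0.23 in LT-HSC on the log2 scale, and every 95% interval spanned 0. The interval in ST-HSC was -0.625 to 0.696. Mutant MPP4 lay below mutant LT-HSC by a log2 difference of -0.71 with an unadjusted p of 0.0328 (adjusted p = 0.399, edgeR), whereas the same contrast in control libraries was -0.15.

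Insr, the insulin receptor gene (chr8:3122061-3279617, minus strand), had its lowest mean in control MPP3. It had 98.8, 67.1, 89.3 and 76.5 CPM in mutant MPP3 libraries and 63.6, 64.0 and 56.1 CPM in control MPP3 libraries. The genotypes did not overlap, but the closest libraries were 67.1 CPM in mutant and 64.0 CPM in control. The log2 difference of 0.43 had a 95% interval of -0.05 to 0.92 and an adjusted p of 1 in edgeR's quasi-likelihood test. Within the 2 column-name prefixes it was 0.38 (2 mutant libraries and 1 control library) and 0.44 (2 and 2). In LT-HSC the means were 93.9 ± 27.9 CPM in mutant and 95.8 ± 12.8 CPM in control libraries (SD, n = 3 and 4). Control MPP3 lay below control LT-HSC in every library (56.1 to 64.0 against 81.3 to 107 CPM), with a log2 difference of -0.64 and an unadjusted p of 0.00863 that did not pass adjustment (adjusted p = 0.18, edgeR). Mutant MPP3 differed from mutant LT-HSC by -0.20, with an interval of -0.745 to 0.345. Insr and Igf1r had a Pearson r of 0.519 over the 29 libraries. By that measure genes like Insr included Gm26686 (0.727) and Rnf19b (0.701), and the genes most like Igf1r were G430095P16Rik (0.742), Stxbp5 (0.729) and Zfp335 (0.722).

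Irs2 (chr8:10984681-11008458, minus strand) was the adaptor with counts in every library. It had 9.32, 11.5 and 11.9 CPM in mutant LT-HSC libraries and 20.4, 26.8, 16.1 and 12.3 CPM in control LT-HSC libraries. Every mutant library was below every control one, with 11.9 CPM in mutant and 12.3 CPM in control as the closest pair. The log2 difference of -0.80 (SE 0.347, 95% interval -1.57 to -0.04) had an unadjusted p of 0.0407 and an adjusted p of 0.545 in edgeR's quasi-likelihood test. Without control LT-HSC replicate 2 it was -0.58, and without control replicate 4, the library low in S100a8, it was -0.94. Control LT-HSC replicate 4, the lowest in neutrophil markers, was also the lowest of its group in Irs2. The part of neutrophil or erythroid RNA in this difference was not tested. Elsewhere the genotypes overlapped, with means of 10.7 ± 3.11 CPM in mutant and 14.6 ± 9 CPM in control ST-HSC libraries, 13.7 ± 6.11 and 14.9 ± 7.67 CPM in MPP3, and 12.3 ± 4.4 and 11.7 ± 6.08 CPM in MPP4. An exon of 9530052E02Rik overlaps Irs2 on the opposite strand. The counting is not stated to use strand, so reads within that overlap cannot be told apart.

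Irs1 (chr1:82233101-82291416, minus strand) was close to the detection limit, and its few counts sat in particular libraries. It was at 0 in 15 of 29 libraries, each of which allows up to 3 counts, and had at most 33 counts. Over all 29 libraries 3 counts correspond to 0.288 to 0.564 CPM. The 5 libraries with 9 or more counts were mutant ST-HSC replicate 2 (10 counts), mutant MPP4 replicate 2 (9), control LT-HSC replicate 2 (21), control ST-HSC replicate 2 (33) and control MPP4 replicate 2 (16). The first 2 of these have the description number 1704 and the other 3 the number 1708. Mutant LT-HSC replicate 3 and mutant MPP3 replicate 4, which also have the number 1704, had 0 counts. The opposite-strand gene Gm9747 overlaps an exon of Irs1, so the same limit holds as for Irs2.

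Igfbp4, the secreted inhibitor of IGF action, was the most abundant member per kilobase and the only one that edgeR called between populations. Its gene lies at chr11:99041244-99054392 on the plus strand. In control libraries it rose in MPP3, with 128, 261 and 172 CPM against 104, 77.9, 94.0 and 86.9 CPM in LT-HSC. The groups did not overlap, and MPP3 replicate 2 was the highest library. The log2 difference was 1.05 (SE 0.248, 95% interval 0.527 to 1.57), or 2.07-fold, with an adjusted p of 0.0434 in edgeR's quasi-likelihood test, and DESeq2 gave an adjusted p of 0.00469. Leaving out 1 library ended the call in 5 of 7 fits: without MPP3 replicate 2 the log2 difference was 0.73 (adjusted p = 0.259), without MPP3 replicate 3 it was 1.11 (0.126), and it was 0.98 (0.139), 1.07 (0.092) and 1.02 (0.0823) when LT-HSC replicate 2, 3 or 4 was left out. With the column-name prefix as a term the adjusted p was 0.0592, and within the prefixes the differences were 0.51 (1 MPP3 and 2 LT-HSC libraries) and 1.23 (2 and 2). A term for the description number also ended the call.

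The same direction was seen in mutant libraries without passing the threshold in edgeR. Igfbp4 had 175, 132, 139 and 135 CPM in mutant MPP3 and 74.5, 104 and 86.5 CPM in mutant LT-HSC libraries. Again the groups did not overlap, and replicate 1 was apart from the other 3 MPP3 libraries. The log2 difference was 0.70 (SE 0.196, 95% interval 0.285 to 1.11), with an adjusted p of 0.0625 in edgeR's quasi-likelihood test and 0.00882 in DESeq2. By prefix it was 0.66 and 0.79. Whether the difference between MPP3 and LT-HSC is itself different in mutant and control cells was tested as part of the joint test above, in which Igfbp4 had an adjusted p of 1.

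Igfbp4 kept 1 order of group means in both genotypes. The means were 145 ± 20 CPM in mutant and 187 ± 67.7 CPM in control MPP3, 127 ± 16.2 and 133 ± 11.7 CPM in MPP4, 107 ± 7.8 and 116 ± 38.9 CPM in ST-HSC, and 88.2 ± 14.7 and 90.7 ± 11.1 CPM in LT-HSC libraries (SD). Each group's range overlapped that of its neighbour in the order of the 8 means. MPP4 exceeded LT-HSC by 0.53 in mutant and 0.56 in control libraries on the log2 scale, with adjusted p-values of 0.253 and 0.240 in edgeR. MPP3 exceeded ST-HSC by 0.43 and 0.68, with adjusted p-values of 0.213 and 0.225. Mutant and control cells differed by -0.05 in LT-HSC and -0.11 in ST-HSC, and by -0.36 in MPP3 and -0.06 in MPP4, and every 95% interval spanned 0. The interval in LT-HSC was -0.49 to 0.38. Antibody-secreting cell genes moved with the MPP3 samples: the 6 genes summed to 1310 to 14800 CPM in mutant and 1060 to 6150 CPM in control MPP3 libraries, and to 77.2 to 162 and 64.5 to 308 CPM in mutant and control LT-HSC libraries. Jchain, the defining gene of that list, had 138 CPM in control MPP3 replicate 2, the library with the most Igfbp4, and 509 CPM in replicate 1, the one with the least in its group. The part of such cells in the Igfbp4 values was not tested. Over the 29 libraries the genes most like Igfbp4 were Tmed10 (r = 0.824), Rcc1 (0.822) and Taf15 (0.801).

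Between populations edgeR called 1 member in 1 comparison. In control libraries 1 of 7 members was called for MPP3 against LT-HSC, where 1.39% of 14937 genes were called. Elsewhere 0 of 7 were called, beside 0.1% of genes for ST-HSC against LT-HSC, 4.49% for MPP4 against LT-HSC, 1.75% for MPP3 against ST-HSC, 1.49% for MPP4 against ST-HSC and 1.44% for MPP4 against MPP3. In mutant libraries 0 of 6 were called, beside 0.278% of 14766 genes for ST-HSC against LT-HSC, 2.95% for MPP3 against LT-HSC, 2.18% for MPP4 against LT-HSC, 4.27% for MPP3 against ST-HSC, 2.24% for MPP4 against ST-HSC and 1.44% for MPP4 against MPP3. Members at an unadjusted p under 0.05 numbered 0 to 3 of 6 per mutant comparison, beside 1171 to 2663 of 14766 genes, and 0 to 2 of 7 per control comparison, beside 1549 to 2357 of 14937. DESeq2 added Igfbp4 for mutant MPP3 and Igf2bp2 for mutant MPP4 against mutant LT-HSC.

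**Figure D3:**
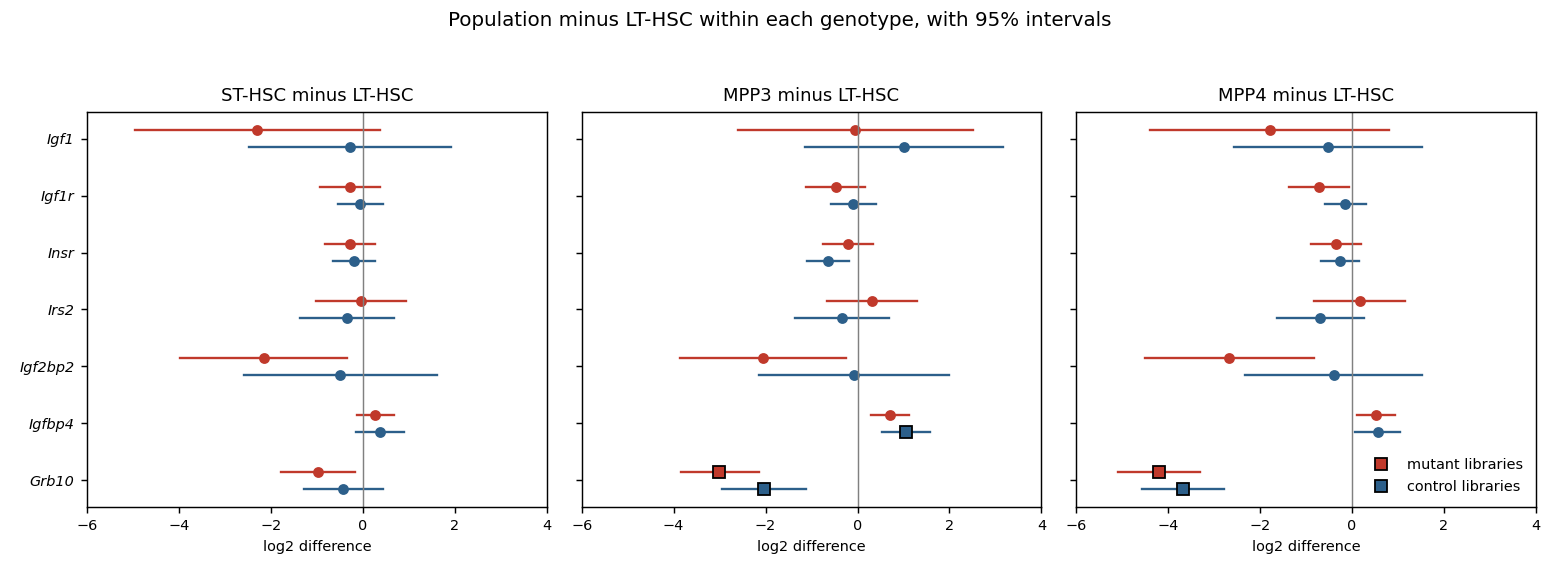
Fitted log2 difference of ST-HSC, MPP3 and MPP4 from LT-HSC (panels), within mutant libraries in red and within control libraries in blue, for 6 members and Grb10, with 95% intervals as lines; squares have an adjusted p under 0.05. Igfbp4 lies right of 0 in MPP3 and MPP4, and Grb10 far left of 0, at -4.19 in mutant and -3.67 in control MPP4.

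Among 100 further genes of the pathway, 96 had a count and 75 to 82 passed the filter, depending on the comparison. Between mutant and control cells edgeR called 0 of them in any population or on average. At an unadjusted p under 0.05 it had 5 in LT-HSC (beside 1185 of 13922 genes), 3 in ST-HSC (493 of 13381), 1 in MPP3 (302 of 13572), 2 in MPP4 (413 of 13108) and 6 on average (1199 of 15915), and DESeq2 called 1, Bcl6 in LT-HSC. The median log2 difference over those tested was 0.05 in LT-HSC and -0.02 in ST-HSC, and it was -0.04 in MPP3 and -0.08 in MPP4, while the median over all genes lay between 0.000893 and 0.0109.

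Grb10, an imprinted adaptor that binds both receptors and restrains their signalling, was called by edgeR in 7 population comparisons. It had 3.15, 8.78, 8.23 and 5.54 CPM in mutant MPP4 and 130.6, 101.2 and 120.2 CPM in mutant LT-HSC libraries. It had 13.2, 6.81, 6.46 and 3.08 CPM in control MPP4 and 65.3, 79.9, 115.6 and 114 CPM in control LT-HSC libraries. Neither genotype showed any overlap, and the lowest LT-HSC library was far above the highest MPP4 one. Grb10 fell in MPP4 relative to LT-HSC, with a log2 difference of -4.19 in mutant libraries (18.3-fold, adjusted p = 9.55e-06) and -3.67 in control libraries (12.8-fold, adjusted p = 9.6e-05) in edgeR's quasi-likelihood test.

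Grb10 was intermediate in ST-HSC and low in MPP3. It averaged 60.1 CPM in mutant and 68.8 CPM in control ST-HSC libraries, and 14.8 and 22.9 CPM in MPP3 libraries. The log2 difference of MPP3 from LT-HSC was -3 in mutant (adjusted p = 0.000309) and -2.03 in control libraries (adjusted p = 0.0276), and that of MPP4 from ST-HSC was -3.21 and -3.24 (adjusted p = 0.000192 and 0.00204). Mutant MPP3 was also below mutant ST-HSC, with a log2 difference of -2.03 (adjusted p = 0.00442). These calls held with each library left out in turn, mutant ST-HSC replicate 2 included, except that for control MPP3 against LT-HSC. That one was lost without LT-HSC replicate 2 (adjusted p = 0.0563) or 3 (0.0695) and without MPP3 replicate 2 (0.112) or 3 (0.162). Mutant and control cells differed in Grb10 by 0.31 in LT-HSC and -0.20 in ST-HSC, and by -0.63 in MPP3 and -0.20 in MPP4, with intervals that span 0.

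**Figure D4:**
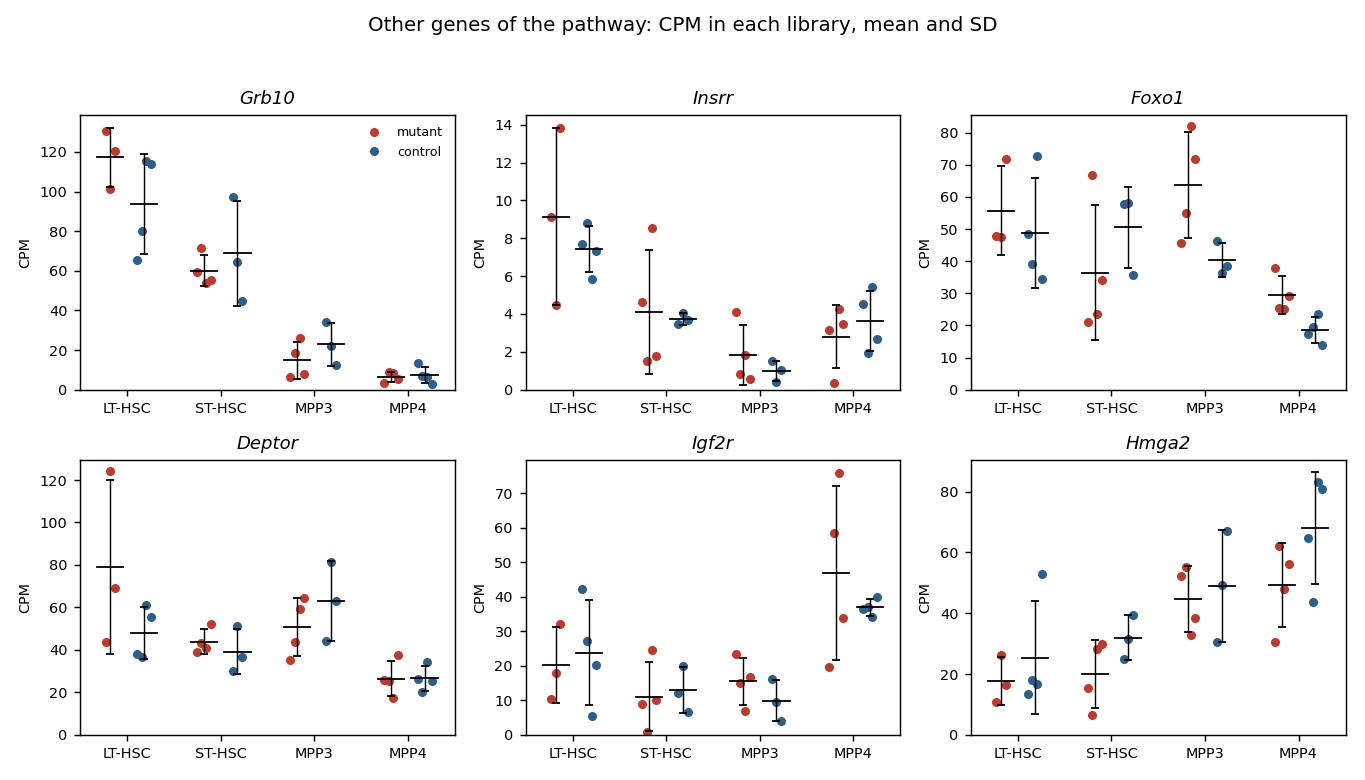
Level of 6 further genes of the pathway in CPM (vertical axes, from 0) by population (horizontal axes), with libraries as points, mutant in red and control in blue, and group means with SD. Grb10 descends from LT-HSC to MPP4 in both genotypes, while Igf2r is highest on average in MPP4, at 47 CPM in mutant and 36.9 CPM in control libraries.

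The wider list held 2 other receptors. Insrr, the insulin receptor-related receptor, had 1.5, 0.413 and 1.06 CPM in control MPP3 and 7.72, 8.79, 5.87 and 7.33 CPM in control LT-HSC libraries. It fell in MPP3, with a log2 difference of -2.88 (adjusted p = 0.0276, edgeR), a call that was lost in 5 of 7 fits without 1 library: LT-HSC replicate 2 (0.0808) or 3 (0.053), or MPP3 replicate 1 (0.0557), 2 (0.114) or 3 (0.131). The call was also lost with a term for the description number. Mutant MPP3 and mutant LT-HSC averaged 1.83 ± 1.59 and 9.15 ± 4.68 CPM, with a log2 difference of -2.35 and an adjusted p of 0.188. Igf2r, which clears IGF2 and is imprinted, averaged 47 ± 25.1 CPM in mutant and 36.9 ± 2.43 CPM in control MPP4 libraries. Its difference from MPP3 was 1.61 in mutant and 1.89 in control libraries, with adjusted p-values of 0.308 and 0.127, and edgeR called no comparison of Igf2r. DESeq2 called it in 2, control MPP4 against control MPP3 and mutant MPP4 against mutant ST-HSC.

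Foxo1, a FoxO factor that Akt restrains, and Deptor, an inhibitor of mTOR, were called lower in MPP4. Foxo1 had 17.5, 19.5, 23.6 and 14 CPM in control MPP4 and 48.3, 39.1, 72.8 and 34.4 CPM in control LT-HSC libraries, without overlap. On the log2 scale it fell by 1.39 relative to LT-HSC (adjusted p = 0.006), a call that held with each library left out. It also fell by 1.45 relative to control ST-HSC (adjusted p = 0.017), which was lost without ST-HSC replicate 2 (0.069) or MPP4 replicate 2 (0.0502) or 4 (0.0598). Mutant MPP4 differed from mutant LT-HSC by -0.92 (adjusted p = 0.274). Deptor fell in mutant MPP4, at 25.6, 25.2, 17.6 and 37.6 CPM against 43.8, 124.1 and 69.1 CPM in mutant LT-HSC (log2 difference -1.58, adjusted p = 0.013), and the call was lost without LT-HSC replicate 2 (-1.08, 0.168), the library with 124.1 CPM. On the log2 scale it fell by 1.25 in control MPP4 relative to control MPP3 (adjusted p = 0.0348), a call lost without MPP3 replicate 2 (0.156) or 3 (0.115) or MPP4 replicate 1 (0.0913), 2 (0.111) or 4 (0.102).

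Txnip, a FoxO-responsive inhibitor of glucose uptake, fell in mutant MPP3. It had 75.3, 95, 63.1 and 112.4 CPM there, against 301.7, 183.8 and 135.2 CPM in mutant LT-HSC (log2 -1.28, adjusted p = 0.011) and 153.7, 203.4, 202.6 and 147.1 CPM in mutant ST-HSC (log2 -1.04, adjusted p = 0.0222), with no overlap in either. The first call was lost without LT-HSC replicate 1 (0.12). The second was lost without ST-HSC replicate 2 (0.0591), the library that stood apart in Slamf1, or 3 (0.06), or MPP3 replicate 1 (0.0592) or 3 (0.0778). Control MPP3 differed from control ST-HSC by -0.88 (adjusted p = 0.0534, edgeR), without overlap and called by DESeq2, and from control LT-HSC by -0.61 (adjusted p = 0.194). Bcl6, a FoxO target, rose in mutant MPP4, at 23.5, 4.39, 41.3 and 18 CPM against 3.71, 4.49 and 3.66 CPM in mutant LT-HSC (log2 2.46, adjusted p = 0.0431), although MPP4 replicate 2 lay within the LT-HSC range. That call was kept in 1 of 7 fits without 1 library, the one without MPP4 replicate 2, and adjusted p-values in the others were 0.0653 to 0.199. A term for the description number also ended it. In control LT-HSC libraries Bcl6 had 63.0, 34.3, 22.5 and 12.7 CPM, in the same order as S100a8. Mutant minus control differences of Bcl6 were -3.07 in LT-HSC and 0.0152 in MPP4 on the log2 scale, neither called by edgeR. The higher level in mutant MPP4 is therefore relative to mutant LT-HSC libraries, which were low in Bcl6.

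In edgeR the following genes were called in single comparisons, while DESeq2 called Igfbp7 in 4 and Inpp4a and Gab1 in 2 each. In control MPP4 against control LT-HSC, Socs2, a feedback inhibitor of cytokine and growth hormone signalling, fell by 1.72 on the log2 scale (adjusted p = 0.019), and Inpp5d, the phosphatase SHIP1, rose by 0.80 on the same scale (adjusted p = 0.0282). Socs2 lost the call without LT-HSC replicate 4 or MPP4 replicate 1, 2 or 4 (0.0512 to 0.0699), and Inpp5d without LT-HSC replicate 1, 2 or 4 or MPP4 replicate 2, 3 or 4 (0.0517 to 0.0904). Inpp4a, another lipid phosphatase, fell in control MPP3 relative to control ST-HSC (log2 difference -1.53, adjusted p = 0.0333), and lost the call in each of 6 fits without 1 library (0.0533 to 0.136). It also lost the call with a term for the description number. In mutant MPP3 relative to mutant ST-HSC, Gab1, a docking protein of receptor tyrosine kinases, fell by 1.29 on the log2 scale (adjusted p = 0.0367), and lost the call without ST-HSC replicate 1, 3 or 4 or MPP3 replicate 1, 2 or 3 (0.0514 to 0.099). Igfbp7, an IGF-binding protein, was called lower in the same comparison (adjusted p = 0.0322), with 1.85, 0.121, 2.26 and 0.224 CPM in mutant MPP3 and 1.69, 37.6, 3.42 and 27.6 CPM in mutant ST-HSC libraries, where replicates 2 and 4 were high and the other 2 overlapped MPP3. Its log2 difference was -3.99, and -3.30 without the library that stood apart in Slamf1 (adjusted p = 0.106), and the call was also lost without ST-HSC replicate 4 or MPP3 replicate 2 or 4 (0.0767 to 0.0807). With a term for the description number the call of Igfbp7 was lost too.

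The fetal growth axis of Igf2bp2 was present mainly as Hmga2 and Hmga1. Hmga2, a chromatin protein of fetal stem cells, had 64.7, 43.6, 83.3 and 80.8 CPM in control MPP4 and 13.6, 18.1, 16.9 and 53.0 CPM in control LT-HSC libraries. It rose in MPP4 by 1.42 on the log2 scale (adjusted p = 0.0447), although LT-HSC replicate 4 reached into the MPP4 range, and lost the call without LT-HSC replicate 1, 2 or 3 or MPP4 replicate 1, 3 or 4 (0.0836 to 0.146). In LT-HSC, where Igf2bp2 was higher in each mutant library, Hmga2 averaged 17.7 ± 7.8 CPM in mutant and 25.4 ± 18.5 CPM in control libraries, a log2 difference of -0.53 (adjusted p = 0.850, edgeR). Hmga1 rose in mutant MPP3 relative to mutant ST-HSC by 1.00 on the log2 scale (adjusted p = 0.0396), and lost the call without ST-HSC replicate 1 or 4 or MPP3 replicate 1 or 3 (0.0826 to 0.139). The same contrast in control libraries was 1.01 (adjusted p = 0.097 in edgeR, called by DESeq2). Lin28b, which blocks let-7 maturation, had counts in 6 libraries: 18 and 8 in mutant ST-HSC replicates 3 and 4, 25 and 1 in mutant MPP4 replicates 2 and 4, and 1 and 5 in control LT-HSC replicates 2 and 3.

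Lin28a and Igfbp5 were called lower in control MPP4 than in control LT-HSC from a few libraries. Lin28a had 0, 0, 0 and 0.0993 CPM in control MPP4 and 12, 7.96, 1.17 and 0 CPM in control LT-HSC libraries (adjusted p = 0.0193, edgeR). Igfbp5 was at 0 in all 4 control MPP4 libraries and had 22.7, 12.7, 2.35 and 0 CPM in control LT-HSC libraries. Both descend in the order of S100a8 in the control LT-HSC libraries, and the part of other cells in them was not tested. Lin28a lost the call without LT-HSC replicate 1 or any 1 of the 4 MPP4 libraries (0.0567 to 0.0699), and Igfbp5 (adjusted p = 0.0377) without LT-HSC replicate 1 or 2 or any 1 MPP4 library (0.0727 to 0.0985).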

How the data were processed

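PolyA RNA of 29 bone marrow libraries was sequenced. The submitters' processing notes name Bowtie2 2.2.0 and RSEM 1.2.12, SAMtools 0.1.18, the build GRCm38 and edgeR 3.5.3. The authors deposited an expected count for each gene, and all values in the table are whole; they were not rounded here, and no source used here says whether they were rounded before deposit. Tests ran under R 4.3.3 in edgeR 4.0.16, after filterByExpr (minimum count 10, total 15) and TMM scaling, by the quasi-likelihood test and Benjamini-Hochberg adjustment at 0.05. Each mutant comparison used the libraries of its population, population comparisons the libraries of 1 genotype, and the average and differing effects all 29. DESeq2 1.42.0, RLE factors, no filter, a replicate block (limma 3.58.1 for a random block), leaving out each library and, added after seeing the data, the column-name prefix were alternatives. Code was tested on simulated data. Symbols and lengths came from GENCODE M21. Each of the 39 pairs of replicates differed beyond sampling noise.

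The members and lists were chosen with earlier results of these data known. Named were the 7 members in every comparison, up to 6 called genes of the wider list per comparison by smallest adjusted p, Igf2r, Hmga2, Lin28b, and the genes most like each member by Pearson r of log2 CPM (prior count 2), some of which are not reported here.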

Additional observations from a re-analysis of the deposited data

Results flagged for a closer look

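Within groups of 4 libraries, 35 gene and group combinations of the members were examined for 1 library apart from the others, and 4 were marked. For normally distributed values chance alone marks about 1 in 20. That rate does not hold for counts as low as those of Irs1. Igfbp4 had 175 CPM in mutant MPP3 replicate 1, apart from 132 to 139 CPM in the other 3 libraries of that group. Irs1 had 1.88 CPM in mutant ST-HSC replicate 2, the library that also stood apart in Slamf1. It had 1.13 CPM in mutant MPP4 replicate 2 and 2.49 CPM in control LT-HSC replicate 2. The other libraries of these 3 groups had at most 2 counts of Irs1 each.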

How the results depend on the processing

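Of 66 gene and comparison pairs, all kept direction and side of the threshold with RLE size factors and with no filter on low counts, and in DESeq2 63 did while 3 passed in addition. Counts of called members changed from 0 to 1 in DESeq2 for mutant against control in LT-HSC and for mutant MPP3 and mutant MPP4 against mutant LT-HSC. For control MPP3 against control LT-HSC the count of 1 became 0 with a block for the description number. It was 0 with the column-name prefix as a term, and 0 to 1 with 1 library left out.

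Replicate numbers showed no clear pairing. Mutant and control libraries of 1 population with the same title number had correlations of -0.175 to 0.0915 in 13 pairs. Being of different genotype, the libraries of such a pair cannot come from the same animal. Populations of 1 genotype with the same description number had -0.152 to 0.175 in 39 pairs, 6 over 0.1. Those with different description numbers had -0.19 to 0.203. Such low correlations cannot exclude that libraries of 1 description number came from the same animals, and the labels do not say. Population comparisons were blocked by the description number, and mutant against control comparisons by the title number. With the description-number block Igfbp4 in control MPP3 had a difference of 1.04 (adjusted p = 0.0659, edgeR). That block also ended the calls of Insrr (0.0635), Inpp4a (0.0541), Bcl6 (0.101) and Igfbp7 (0.0877). With the title-number block Igf2bp2 in mutant LT-HSC had a difference of 2.02 (adjusted p = 0.286, edgeR). The random block had a consensus correlation of -0.000527 and changed no member's call.

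Directions that reversed belonged to differences that were not called. With the title-number block, Igf1r became -0.18 and Igf2bp2 -0.40 in ST-HSC, and Igf2bp2 0.0563 in MPP4. With the column-name prefix as a term, Igf1r became -0.0913 in ST-HSC and Igf2bp2 -0.15 in MPP3. Leaving out 1 library reversed further mutant minus control log2 differences, with these ranges. In LT-HSC they were -0.36 to 1.23 for Igf1, -0.28 to 0.14 for Insr and -0.18 to 0.0565 for Igfbp4. In ST-HSC they were -0.14 to 0.21 for Igf1r, -0.24 to 0.10 for Insr, -0.72 to 0.18 for Irs2, -0.30 to 0.63 for Igf2bp2 and -0.34 to 0.13 for Igfbp4. In MPP3 they were -1.39 to 0.0548 for Igf1, -0.46 to 0.28 for Irs2 and -0.49 to 1.57 for Igf2bp2. In MPP4 they were -1.72 to 0.0826 for Igf1, -0.24 to 0.0325 for Insr, -0.19 to 0.50 for Irs2, -0.72 to 0.44 for Igf2bp2 and -0.12 to 0.0225 for Igfbp4. For the average over populations they were -0.0913 to 0.00549 for Igf1r, -0.00772 to 0.10 for Insr and -1.79 to 0.43 for Irs1. The cause was not tested. Over all genes DESeq2 called more than edgeR: 292 against 0 for mutant against control in LT-HSC, 111 against 4 on average and 44 against 0 for differing effects, and between populations 174 to 1155 against 41 to 631 in mutant and 296 to 1061 against 15 to 670 in control libraries. Igf1, Irs1 and Igf2bp2 had at most 92, 33 and 140 counts per library.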

Other observations

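Across all 29 libraries the effect of the mutation averaged over populations was -0.73 for Igf1, -1.16 for Irs1, -0.32 for Irs2 and 0.53 for Igf2bp2 on the log2 scale, none of them called. Igf2bp2 was most like Ecm1 (r = 0.692) and Zfp619 (0.687) over the libraries, Irs2 most like ENSMUSG00000081915 (0.751), Zfyve9 (0.738) and Aknaos (0.726), and Irs1 most like Cyp1b1 (0.712), Slc25a20 (0.644) and Ccng2 (0.621). Bcl6 had 3.71, 4.49 and 3.66 CPM in mutant LT-HSC and 63.0, 34.3, 22.5 and 12.7 CPM in control LT-HSC libraries, a log2 difference of -3.07 (adjusted p = 0.126, edgeR), beside S100a8 at 17.1, 67.2 and 5.83 CPM and 2260, 583, 349 and 3.67 CPM.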
